A study of Mus musculus with 8 samples.

Results

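The kinesin genes encode motor proteins that use ATP to move along microtubules or to shorten them, and they were followed here through the cells of 8 mouse melanomas. Members were taken by name, as every gene whose symbol is Kif followed by a number and, where present, a letter. This gave 38 of the 31053 genes in the count tables and left out kinesin motors with other symbols, such as Cenpe and Kifc1. The 38 were divided by role into 12 mitotic members (Kif2c, Kif4, Kif11, Kif14, Kif15, Kif18a, Kif18b, Kif20a, Kif20b, Kif22, Kif23 and Kif24) and 26 transport and other members. This division was made with earlier results of these data known.

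The tumours grew from B16F10 cells, a mouse melanoma line, injected under the skin of mice, and were taken at 300 mm3. Of the hosts, 4 were Atf4wt/wt (2 males, 2 females) and 4 were Atf4D/D (3 males, 1 female), all 12 weeks old by their labels. Both carry Rosa26::CreERT2, a Cre recombinase made in most cells and switched on by tamoxifen, and both received tamoxifen by gavage. In Atf4D/D hosts the Cre removes the floxed part of Atf4, the gene of a stress-response transcription factor. The melanoma cells keep their own Atf4, so the deletion lies in the stroma, the vessels and the immune cells. Each tumour gave 1 single-cell library, so n is 4 tumours per genotype.

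The libraries held 37283598 to 74942137 UMIs, unique molecular identifiers that each mark 1 captured RNA. Of 41925 barcodes, 28411 cells were kept. Melanoma-like cells, which express Dct, Pmel, Mlana and Tyrp1, numbered 23725, with 2153 to 4826 per tumour. The host cells were far fewer, with 731 like cancer-associated fibroblasts (CAF-like, 10 to 242 per tumour), 316 like tumour-associated macrophages (TAM-like, 7 to 128), 81 T/NK-like, 37 endothelial-like and 24 dendritic-like cells. Another 475 immune and 2780 other cells stayed unnamed. A cluster of 242 cells with the highest mitochondrial share was removed, 230 of which came from Atf4wt/wt replicate 4. In all, 96 barcode sequences occurred in more than 1 library, which touched 192 cells. Levels are given in CPM, the UMIs of a gene per 1000000 UMIs of the cells named. A UMI marks the 3′ end of a molecule, so these levels need no scaling by transcript length.

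Kinesins of the mitotic kind build the spindle, push and align chromosomes, trim microtubule ends and organise the midzone where the cell divides. Most are made afresh in each cycle and destroyed at its end. The transport kinesins instead carry vesicles, mitochondria, endosomes and cilium parts outwards along microtubules at all times, and several of them work with light chains or adaptors that choose the cargo.

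Promoters of the mitotic members often hold a short element called the cell cycle genes homology region (CHR, letters TTTGAA), which binds the complexes that hold late cell-cycle genes silent in resting cells, and a CCAAT box, bound by NF-Y. The sequences below are of genes whose levels in G1, S and G2M did not overlap (Kif23, Kif18b, Kif11 and Kif4), of the mitotic member whose S and G2M levels did (Kif24), and of a transport gene for contrast (Kif3b). Kif23, Kif18b, Kif11 and Kif4 all hold both elements, which not every mitotic promoter does. Each runs 5′ to 3′ along the gene's strand from 250 bases before to 50 bases after the RefSeq start in GRCm38.p6. Capitals mark TTTGAA and CCAAT on either strand, so TTCAAA and ATTGG are the same elements read backwards.
Kif23: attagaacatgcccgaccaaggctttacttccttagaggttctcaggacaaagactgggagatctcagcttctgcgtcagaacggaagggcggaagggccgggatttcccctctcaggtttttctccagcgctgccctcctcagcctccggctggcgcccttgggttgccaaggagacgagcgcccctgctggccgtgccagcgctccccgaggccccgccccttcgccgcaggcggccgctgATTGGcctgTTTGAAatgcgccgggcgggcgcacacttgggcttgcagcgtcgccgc
Kif18b: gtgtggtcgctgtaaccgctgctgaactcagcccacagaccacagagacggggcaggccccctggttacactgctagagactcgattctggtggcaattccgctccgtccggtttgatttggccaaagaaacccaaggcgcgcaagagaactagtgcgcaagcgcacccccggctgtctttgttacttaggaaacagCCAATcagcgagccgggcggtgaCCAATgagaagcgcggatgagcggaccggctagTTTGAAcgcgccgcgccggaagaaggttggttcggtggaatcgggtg
Kif11: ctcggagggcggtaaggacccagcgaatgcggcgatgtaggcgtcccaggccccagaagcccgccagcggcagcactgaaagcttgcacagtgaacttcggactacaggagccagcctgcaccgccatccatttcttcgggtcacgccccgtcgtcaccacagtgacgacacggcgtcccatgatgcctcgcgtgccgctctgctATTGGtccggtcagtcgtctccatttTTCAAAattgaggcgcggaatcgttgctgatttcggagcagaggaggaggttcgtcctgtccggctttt
Kif4: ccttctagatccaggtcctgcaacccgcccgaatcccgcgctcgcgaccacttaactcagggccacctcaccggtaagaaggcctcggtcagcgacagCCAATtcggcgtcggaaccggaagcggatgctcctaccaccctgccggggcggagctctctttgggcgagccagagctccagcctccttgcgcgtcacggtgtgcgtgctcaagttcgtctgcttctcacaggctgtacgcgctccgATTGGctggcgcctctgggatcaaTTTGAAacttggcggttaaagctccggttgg
Kif24: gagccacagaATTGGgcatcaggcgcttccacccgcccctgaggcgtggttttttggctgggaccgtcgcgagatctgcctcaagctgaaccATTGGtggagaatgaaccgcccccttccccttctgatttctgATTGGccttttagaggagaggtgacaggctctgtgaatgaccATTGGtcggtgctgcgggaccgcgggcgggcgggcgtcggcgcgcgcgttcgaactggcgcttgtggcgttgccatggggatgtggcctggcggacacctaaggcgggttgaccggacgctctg
Kif3b: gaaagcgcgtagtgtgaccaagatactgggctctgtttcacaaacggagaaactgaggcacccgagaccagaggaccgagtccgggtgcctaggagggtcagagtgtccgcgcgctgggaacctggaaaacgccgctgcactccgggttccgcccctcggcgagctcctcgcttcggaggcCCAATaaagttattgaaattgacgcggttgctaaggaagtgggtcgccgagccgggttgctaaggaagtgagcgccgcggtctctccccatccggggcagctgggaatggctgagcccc

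These windows lie at chr9:61946750-61947049 on the minus strand (Kif23), chr11:102925075-102925374 on the minus strand (Kif18b), chr19:37376132-37376431 on the plus strand (Kif11), chrX:100625815-100626114 on the plus strand (Kif4), chr4:41464799-41465098 on the minus strand (Kif24) and chr2:153291166-153291465 on the plus strand (Kif3b). RefSeq windows were used for 31 of the 38 members, 11 of them mitotic. The members on chromosome 18, Kif20a and Kif5b, were left out of the search. The letters TTTGAA stood on either strand in 9 of the 11 mitotic promoters (81.8%), in 3 of 20 other kinesin promoters (15%) and in 17.9% of all 32851 mouse promoters in the RefSeq table. In 7 of the 9 (Kif11, Kif15, Kif18b, Kif20b, Kif22, Kif23 and Kif4) the letters began within 50 bases of the annotated start. CCAAT stood in 7 of 11 mitotic promoters (63.6%), against 35% of the other kinesin promoters and 37.4% of all. Both elements were together in 6 of 11 (54.5%), in 10% of the other kinesins and in 6.95% of all. Kif24 held 4 CCAAT boxes in reverse orientation and no TTTGAA, and Kif3b held 1 CCAAT box and no TTTGAA. One spelling of an E2F element, TTTGGCGC, stood in 2 mitotic promoters (Kif15 and Kif18a), in no other kinesin promoter and in 0.514% of all. The further E2F spellings TTCCCGCC, TTTCCCGC and TTTGGCGG, which can overlap one another, stood in no mitotic promoter. The letters TGATGNAA, the core of an ATF4 element, stood in 1 mitotic window, that of Kif2c, and in 3.97% of all promoters. The windows of Kif2c, Kif14, Kif27, Kif26a and Kif3a and 1 of those of Kif1a start 1547 to 19559 bases inside their gene, so they may belong to a downstream start. Without windows over 1000 bases inside, TTTGAA stood in 7 of 9 mitotic and 1 of 17 other kinesin promoters, and both elements in 5 of 9 and 1 of 17. A letter match is a description of these 300 bases and is not a measured binding site.

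Melanoma-like cells were called G1, S or G2M from 43 S-phase and 50 G2M genes, after the 4 members in the usual G2M list were taken out. No member helped to call a phase, but Cenpe, a kinesin motor outside the naming rule, did. The calls gave 11720 cells in G1, 5699 in S and 6306 in G2M. Median UMIs per cell were 8886, 12062 and 12367. In 1858 cells (7.83%) the higher of the S and G2M scores lay within 0.05 of 0, the boundary of the G1 call. Cells near the boundary between S and G2M were not counted. Counts were summed per tumour and phase and compared within tumours by the quasi-likelihood method of edgeR. The p-values were adjusted (Benjamini-Hochberg) over all genes tested. An SE here is the absolute log2 fold change divided by the square root of the F value of the test. Such an SE is no separate estimate of the error and can understate it where a change is large or counts are low.

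The mitotic kinesins were nearly silent in G1-called cells, were already present in S and reached their highest level in G2M. Summed over the 12, the level across the 8 tumours was 19.1 to 31.3 CPM in G1 (median 21.3), 206 to 248 in S (median 221) and 607 to 710 in G2M (median 658). The 3 phases did not overlap. All 12 were higher in G2M than in G1 by a log2 fold change of at least 1, in a comparison where 4.63% of 11505 genes were. The list was drawn with earlier results of these data known, so counts over it describe the list and are no independent test. The median log2 fold change of the 12 was 5.0, against −0.02 over all genes. Of all 30 kinesins with enough counts to test, 14 were higher (35% of all genes were) and 7 were lower (36.9% were). For all 12 the lowest G2M tumour stood above the highest G1 tumour, which held for 13.7% of genes. All 12 also separated S from G1 in this way (15% of genes), and all but Kif24 separated G2M from S (3.56% of genes). When each cell was thinned to 5000 UMIs before the phases were called, the count stayed at 12 of 12.

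**Figure D1:**
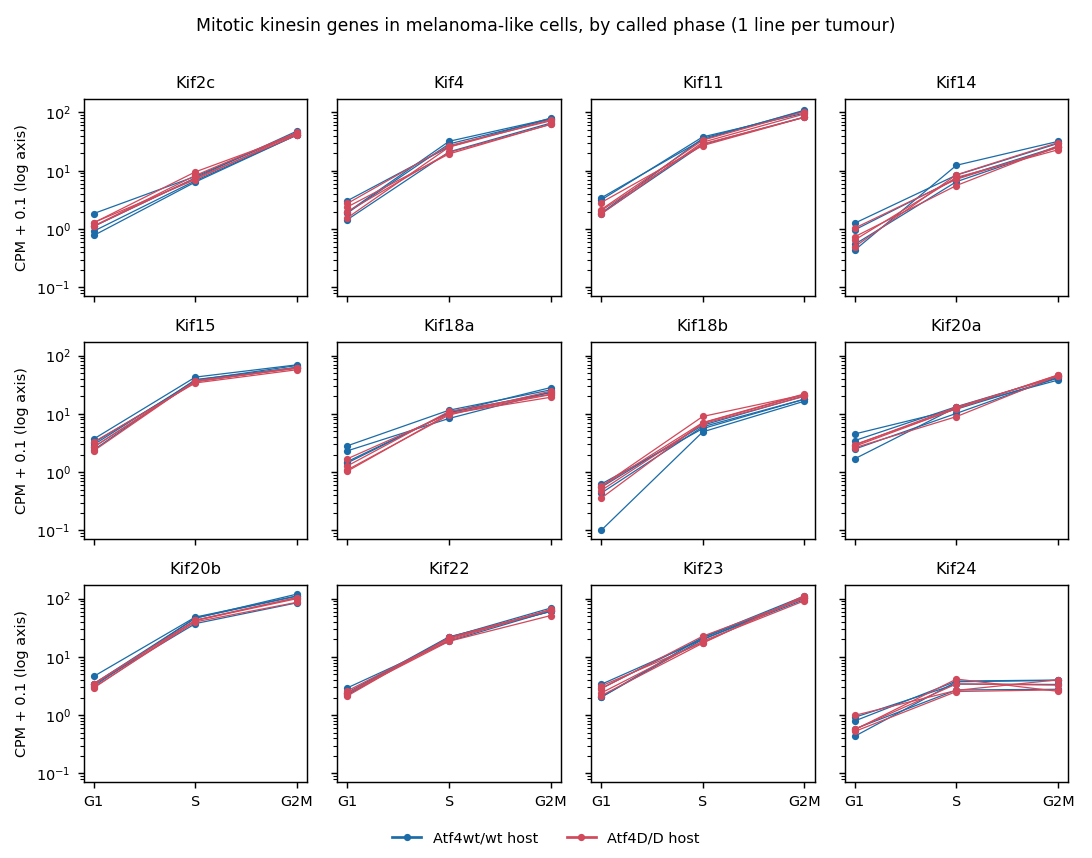
Levels of the 12 mitotic kinesin genes in melanoma-like cells called G1, S and G2M, as CPM plus 0.1 on a log axis, with 1 line per tumour (4 Atf4wt/wt and 4 Atf4D/D hosts). Every line climbs from G1 to S, and for every gene but Kif24 all G2M values are above all S values.

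Kif11 and Kif15 push the spindle poles apart. Kif11 was 1.71 to 3.31 CPM in G1 (median 2.01), 27.0 to 38.0 in S (median 32.1) and 82.5 to 109 in G2M (median 95.8). All 8 tumours kept this order without overlap, and the log2 fold change of G2M over G1 was 5.31 (SE 0.06, adjusted p = 2.14e-42). Kif15, which can stand in for Kif11, was 2.22 to 3.60 CPM in G1 (median 2.73), 33.8 to 42.6 in S (median 36.5) and 57.1 to 69.3 in G2M (median 62.1). It separated all 3 phases, yet the step from S to G2M was the smaller one. Its log2 fold change was 3.69 (SE 0.06) from G1 to S and 0.75 (SE 0.04, adjusted p = 2.68e-20) from S to G2M.

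Another 4 members serve the central spindle and the cut between daughter cells. Kif23, the motor of the centralspindlin complex, was 1.93 to 3.28 CPM in G1 (median 2.52), 17.1 to 22.6 in S (median 19.9) and 91.7 to 113 in G2M (median 104). Each phase stood clear of the next, and the log2 fold change over G1 was 5.33 (SE 0.06, adjusted p = 1.73e-42). Kif20a, which brings Aurora B and its partners to the midzone, was 1.59 to 4.42 CPM in G1 (median 2.75), 8.86 to 13.2 in S (median 12.2) and 37.9 to 46.3 in G2M (median 43.9). Its G1 range overlapped those of Kif15 and Kif23, and its log2 fold change in G2M was 3.88 (SE 0.08). Kif20b, a midbody motor, was 2.83 to 4.53 CPM in G1 (median 3.30), 37.2 to 48.2 in S (median 42.5) and 84.8 to 120 in G2M (median 104), a log2 fold change of 4.91 (SE 0.05). Kif14, which acts with citron kinase at the midbody, was 0.336 to 1.16 CPM in G1 (median 0.595), 5.48 to 12.3 in S (median 7.43) and 22.8 to 31.9 in G2M (median 26.3). The phases did not overlap, and the log2 fold change was 5.29 (SE 0.12).

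The chromokinesins Kif4 and Kif22 bind chromosome arms. Kif4, which also measures out the midzone with Prc1, was 1.35 to 2.97 CPM in G1 (median 1.87), 19.4 to 32.0 in S (median 25.6) and 62.4 to 80.1 in G2M (median 73.3). Its log2 fold change over G1 was 5.09 (SE 0.07), with no overlap between any of the phases. Kif22, which pushes chromosomes away from the poles, was 2.04 to 2.85 CPM in G1 (median 2.28), 18.5 to 22.1 in S (median 20.8) and 51.1 to 68.8 in G2M (median 62.5), a log2 fold change of 4.69 (SE 0.06).

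The remaining mitotic members shorten or cap microtubules. Kif2c, the depolymerase at centromeres, was 0.676 to 1.74 CPM in G1 (median 1.02), 6.32 to 9.48 in S (median 7.40) and 40.9 to 48.0 in G2M (median 43.1), a log2 fold change over G1 of 5.24 (SE 0.08). Kif18b, which limits astral microtubules, had the largest fold change of the 12, though not with thinned cells (5.15, against 5.16 for Kif11 and Kif23). It was 0 to 0.523 CPM in G1, with 0 UMIs in Atf4wt/wt replicate 4, and 16.4 to 21.9 in G2M (median 20.1), a log2 fold change of 5.63 (SE 0.12, adjusted p = 3.19e-33). Kif18a, which damps chromosome movement at the metaphase plate, was 0.940 to 2.73 CPM in G1 (median 1.38) and 19.2 to 28.2 in G2M (median 23.3), a log2 fold change of 3.85 (SE 0.10). Kif24, which acts at the mother centriole and holds back cilium growth, was the least abundant of the 12. It was 0.336 to 0.894 CPM in G1 (median 0.477), 2.45 to 4.07 in S (median 3.33) and 2.47 to 3.96 in G2M (median 3.22). Its S and G2M values lay on top of each other, while both stood clear of G1, with a log2 fold change of 2.44 (SE 0.17) in G2M.

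The 12 did not rise in step between S and G2M. From G1 to S all 12 were called higher (35% of all genes were), by log2 fold changes from 2.00 (Kif20a) to 4.04 (Kif18b). From S to G2M 11 of the 12 were higher, and of the 30 tested kinesins 14 were higher (22.2% of all genes) and 2 lower (23.2%). The steepest second steps were those of Kif2c, at 2.50 (SE 0.06, adjusted p = 1.98e-30), and Kif23, at 2.38 (SE 0.05, adjusted p = 7.70e-34). Kif20a (1.88), Kif14 (1.82), Kif22 (1.61), Kif18b (1.59), Kif11 (1.57) and Kif4 (1.54) followed, then Kif20b (1.24), Kif18a (1.19) and Kif15 (0.75). For Kif24 the difference was 0.04 (SE 0.13, adjusted p = 0.819), and its direction turned without Atf4D/D replicate 3. On the log2 scale the first step was the larger for all 12. For Kif20a this did not hold in every alternative, where the first step went down to 1.93 and the second up to 2.00. For Kif2c (2.74 and 2.50) and Kif20a (2.00 and 1.88) the steps were of nearly equal size, while for Kif15 (3.69 and 0.75) and Kif24 (2.40 and 0.04) the first was by far the larger.

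**Figure D2:**
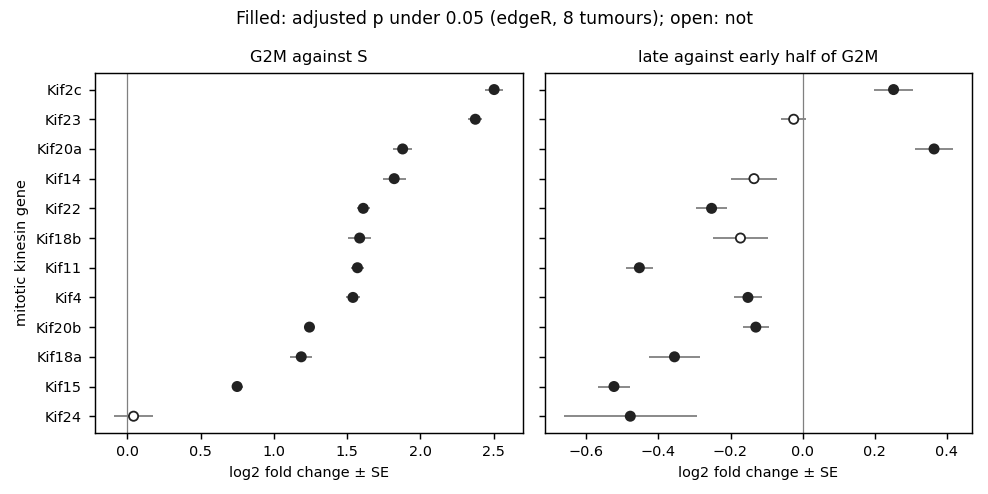
Log2 fold changes with bars of 1 SE (edgeR, n = 8 tumours) for the 12 mitotic kinesins, from S to G2M on the left and from early to late G2M on the right, where filled points passed an adjusted p of 0.05. Kif2c and Kif23 lead on the left, at 2.50 and 2.38, and on the right Kif20a and Kif2c lie above 0 while Kif15, Kif24 and Kif11 lie furthest below. The SE was derived from the F value of the test.

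G2M-called cells were then divided in each tumour at the median of a late minus early score. The early score used 16 genes such as Top2a, Mki67 and Ccna2, and the late score used 16 such as Plk1, Cdc20 and Ccnb1. No member was in either, while the kinesin motor Cenpe, which is not a member by its symbol, was in the late score. Early and late G2M are ranges of this score and not cell states of their own. Of 27 kinesins tested, 5 were higher in late G2M (11% of 10237 genes were) and 7 were lower (12.5% were). All differences were small, and none reached a log2 fold change of 1.

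Kif20a gave the largest rise. It was 30.6 to 43.3 CPM in early and 45.8 to 53.0 in late G2M. These ranges did not overlap, and late G2M was higher in 8 of 8 tumours, with a log2 fold change of 0.36 (SE 0.05, adjusted p = 4.01e-08). Kif2c rose from 36.3 to 44.1 CPM (median 39.9) to 42.5 to 56.6 (median 46.8), also in 8 of 8 tumours, by 0.25 (SE 0.05, adjusted p = 1.37e-04). Kif15 fell in 8 of 8 tumours, from 64.1 to 85.1 CPM early to 48.1 to 58.8 late, by 0.52 on the log2 scale (SE 0.04, adjusted p = 2.11e-16). Its ranges did not overlap either. Kif11 fell in 8 of 8 tumours too, from 91.1 to 122 CPM (median 109) to 63.8 to 95.7 (median 78.7), by 0.45 (SE 0.04, adjusted p = 5.93e-17). Kif24, Kif18a, Kif22, Kif4 and Kif20b were also called lower, by 0.48, 0.36, 0.25, 0.15 and 0.13, and each of these calls was lost in at least 1 alternative. Kif23 (−0.03), Kif14 (−0.14) and Kif18b (−0.17) did not pass. Kif20a, Kif2c, Kif15 and Kif11 kept their direction and their call in every alternative that was run. The count of called kinesins fell from 12 to 7 with DESeq2, and to 5 with thinned cells or without the tumour block.

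The transport and other members were summed at 604 to 729 CPM in G1 (median 659), 564 to 639 in S (median 598) and 580 to 668 in G2M (median 614), with overlap between all 3 phases. In G1 the mitotic members together were at a median of 21.3 CPM beside this, and in G2M at 658. Of the 18 tested, 2 were higher in G2M than in G1 and 7 were lower, and in S 2 were higher (35% of all genes) and 9 lower (38.2%). Their median log2 fold change was −0.09 in G2M and −0.16 in S. The other 8 members had too few UMIs to test. Over all kept cells Kif12 and Kif2b had 0 UMIs, Kif1a 5, Kif27 37, Kif5c 39, Kif19a and Kif28 51 each and Kif5a 71.

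Kif2a, a depolymerase of spindle poles that also works in interphase, was the abundant member of this group that rose. It was 36.9 to 47.6 CPM in G1 (median 44.2), 56.3 to 64.9 in S (median 61.0) and 48.1 to 65.0 in G2M (median 55.1). Neither cycling phase overlapped G1. The log2 fold change was 0.49 in S (SE 0.04, adjusted p = 6.08e-14) and 0.35 in G2M (SE 0.04, adjusted p = 3.39e-10), and the fall of 0.14 from S to G2M also passed (SE 0.04, adjusted p = 0.00575), but not without the tumour block (adjusted p = 0.0922). Kif17, the homodimeric kinesin-2 of cilia and dendrites, was the second, at 0.394 to 1.86 CPM in G1 (median 0.904) and 0.853 to 2.74 in G2M (median 1.66). The ranges overlapped, yet G2M was higher in 8 of 8 tumours, by a log2 fold change of 0.77 (SE 0.20, adjusted p = 6.16e-04).

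Kif21b, a kinesin-4 that restrains microtubule growth and is best known in neurons and T cells, moved the other way. It was 31.8 to 63.8 CPM in G1 (median 46.5), 21.2 to 27.5 in S (median 24.7) and 24.9 to 35.8 in G2M (median 30.2). G1 stood clear of S in every tumour and overlapped G2M. The log2 fold change was −0.97 in S (SE 0.06, adjusted p = 2.12e-18) and −0.68 in G2M (SE 0.05, adjusted p = 1.23e-14). Its close relative Kif21a, at 65.1 to 93.6 CPM in G1 (median 76.8) and 52.2 to 79.5 in G2M (median 60.7), was lower in G2M by 0.30 (SE 0.04), again in 8 of 8 tumours.

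Kif5b, the ubiquitous conventional kinesin heavy chain, had the highest level of all members, at 240 to 294 CPM in G1 (median 259) and 212 to 264 in G2M (median 241). It was lower in G2M in 8 of 8 tumours, but only by 0.14 on the log2 scale (SE 0.02, adjusted p = 1.80e-07). Kif3a and Kif3b form kinesin-2, the motor that carries parts to the tip of the cilium. Kif3a was 85.5 to 102 CPM in G1 (median 98.7), 67.4 to 82.8 in S (median 80.5) and 83.6 to 99 in G2M (median 96.8). S lay below both other phases without overlap, and the log2 fold change was −0.33 from G1 to S (SE 0.03, adjusted p = 1.22e-13) and 0.28 from S to G2M (SE 0.03, adjusted p = 2.25e-10). Kif3b dipped in the same phase, by −0.30 (SE 0.06) and back by 0.24 (SE 0.06), although both calls were lost with thinned cells. Kif9 (−0.46), Kif26b (−0.40), Kif3c (−0.22) and Kif13a (−0.17) were also called lower in G2M than in G1, and each of these calls was lost in at least 1 alternative.

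**Figure D3:**
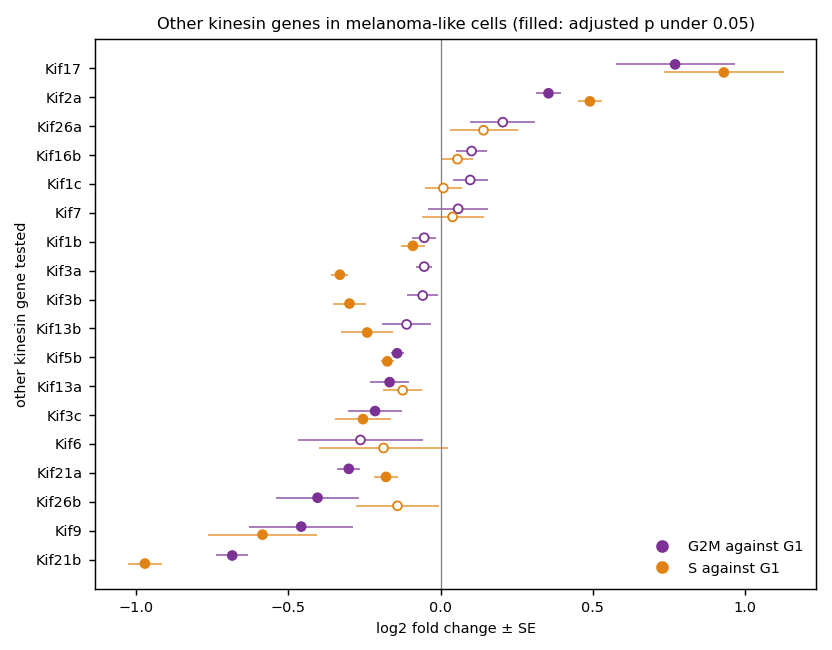
Log2 fold changes with bars of 1 SE (edgeR, n = 8 tumours) for the 18 transport and other kinesins tested in melanoma-like cells, for G2M against G1 and S against G1, where filled points passed an adjusted p of 0.05. Kif21b lies lowest in both, at −0.68 and −0.97, and Kif17 and Kif2a lie above 0. The SE was derived from the F value of the test.

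Levels in the melanoma-like clusters are given as a description, with no test. No member was among the variable genes that made them, after 14 genes with symbols that begin with Kif had been taken out. The mitotic members together averaged 88.2 CPM in the cluster led by Ung, Cdc6 and Mcm3, 379 in the one led by Pclaf and Rrm2, 768 in the one led by Cenpf, Prc1 and Nusap1, and 282 in the one led by Cenpa, Ccnb2 and Cdc20. The Cenpa cluster, with 2177 cells called G2M, 771 G1 and 365 S, thus lay below the Pclaf cluster, with 2518 called S and 519 G2M. The 3 clusters with the most G1-called cells held 20.1 to 20.8 CPM. A cluster led by Ifit1 and Ifit3 mixed the phases (449 cells called G1, 219 G2M and 169 S), and its level is not given. Kif24 averaged 4.50 CPM in the Pclaf cluster, 3.78 in the Cenpf cluster and 1.25 in the Cenpa cluster. Kif21b was high in 1 of the 3 quiet clusters, the one led by Espn, Nppb, Selenbp1, Car9 and Bnip3, at 75.6 CPM (58.7 to 94.4 over the tumours), against 44.8 (30.8 to 58.9) in the cluster led by Fgf21 and Nupr1 and 30.6 (24.1 to 36.8) in the one led by Kcnj13 and Mgll. Car9 and Bnip3 are textbook targets of the hypoxia response.

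Genes that work with kinesins were listed beside the members, together with kinesin motors outside the naming rule (Cenpe, Kifc1, Kifc2, Kifc3 and Kifc5b). Of this list, 29 were tested in melanoma cells. In G2M 16 were higher than in G1 (35% of all genes were) and 8 were lower (36.9% were). The strongest rises were those of the spindle protein Nusap1 (log2 fold change 5.61, SE 0.06), of Prc1 (5.33, SE 0.04), which bundles midzone microtubules and recruits Kif4, and of Aurkb (4.89, SE 0.07), the kinase that Kif20a carries. The strongest falls were those of the kinesin light chain Klc3 (−0.63, SE 0.16), of the cargo adaptor Mapk8ip3 (−0.60, SE 0.06) and of the dynein chain Dync1li1 (−0.44, SE 0.03). Nusap1, Aurkb, Tpx2, Birc5, Cdca8, Ect2 and Cenpe were among the genes that called the phases, so their rise is no result. Of the other 22, 9 were higher and 8 were lower. Among those 22, the motors Kifc1 (log2 fold change 4.33) and Kifc5b (3.75) were called higher, and Kifc3 (0.06) was not called.

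In CAF-like cells another set of kinesins was high. Kif26b, an atypical kinesin that does not hydrolyse ATP and takes part in cell adhesion and polarity in mesenchyme, was 16.7 to 56.7 CPM in CAF-like cells (median 22.2) and 1.81 to 5.83 in melanoma-like cells (median 3.33). The classes did not overlap in any of the 8 tumours, and the log2 fold change was 3.19 (SE 0.28, adjusted p = 4.95e-11). Its relative Kif26a went the other way, with 3 UMIs in all 731 CAF-like cells, which is 0.777 CPM (95% exact Poisson interval 0.16 to 2.27), against 3.37 to 6.33 CPM in melanoma. The endosome and vesicle motors Kif1c, at 22.2 to 56.7 CPM against 12.9 to 14.7, and Kif1b, at 53.6 to 93.3 against 36.0 to 42.7, were above every melanoma sum, with log2 fold changes of 1.40 (SE 0.19) and 0.93 (SE 0.13). Kif2a rose by 0.44 (SE 0.14). In all, 4 of 30 kinesins were higher in CAF-like cells (27% of 11774 genes were) and 9 were lower (25.8% were).

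The 9 lower in CAF-like cells were Kif26a, Kif16b (log2 fold change −1.30, SE 0.28), Kif14 (−1.28, SE 0.39), Kif21a (−1.08, SE 0.15), Kif3a (−1.01, SE 0.14), Kif21b (−0.90, SE 0.22), Kif23 (−0.63, SE 0.19), Kif15 (−0.60, SE 0.18) and Kif4 (−0.56, SE 0.20). CAF-like Kif3a was 16.7 to 48.4 CPM, all below the 80.4 to 96.6 of melanoma. DESeq2's size factors moved all genes by a median of −0.09 here and added Kif2c, Kif20b and Kif3c to the calls. Kif5c, a conventional kinesin of neurons, was too rare to test, yet held 26 UMIs in CAF-like cells (6.73 CPM, interval 4.40 to 9.86) and 12 in all melanoma-like cells (0.0467 CPM, interval 0.0241 to 0.0815). These intervals cover counting error only. CAF-like cells of Atf4D/D replicate 3 numbered 10.

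Melanoma RNA was present in the host classes, so levels there are given beside it. The 4 markers Dct, Pmel, Mlana and Tyrp1 together stood at 21.1% of their melanoma level in CAF-like cells, at 7.38% in TAM-like, 12.1% in T/NK-like, 7.96% in dendritic-like and 23.9% in endothelial-like cells. The mitotic kinesins together stood at 59.1% of the melanoma level in CAF-like and 88.2% in TAM-like cells. In the 371 CAF-like cells with at most 2 UMIs of the melanoma markers, those markers stood at 2.34% and the mitotic kinesins at 46.7%. The share of the mitotic kinesins was above that of the markers in 8 of 8 tumours for CAF-like cells and in 7 of 7 for TAM-like cells. Both classes were named by rules that keep out clusters led by melanoma markers. Their marker share was thus in part low by definition, and these counts are no test of where the mitotic RNA came from. In CAF-like cells of Atf4D/D replicate 3 the share of the mitotic kinesins rested on 1 mitotic UMI. For CAF-like cells with few markers it was above in 7 of 7, but these cells were chosen by the same markers. Their marker share was therefore low by choice, and that count is no test. Kif26b in the few-marker CAF-like cells was 32.4 CPM (interval 23.7 to 43.2). Pooled Kif21a was 19.7 CPM (interval 13.1 to 28.5) and Kif21b 9.86 (5.39 to 16.5) in them, lower than the 29.5 and 17.1 of all CAF-like cells. With these cells alone 16 kinesins were called against melanoma, 3 of them higher. The calls of Kif14 (−1.14, adjusted p = 0.0959) and Kif2a were lost in them.

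CAF-like cells called by the same phase genes kept the order of the melanoma cells. With few melanoma markers, the mitotic members together were 23.9 CPM in the 289 cells called G1 (interval 15.6 to 35.1), 176 in the 27 called S (107 to 272) and 617 in the 55 called G2M (518 to 730). Kif20b, Kif11 and Kif23 led the G2M-called fibroblasts, at 113, 104 and 81.7 CPM.

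TAM-like cells differed from melanoma in other members. Kif13b, a kinesin-3 that carries endosomes and membrane proteins, was 0 to 55.0 CPM (median 14.7) in the 7 tumours with at least 10 TAM-like cells, and 7.47 to 9.24 in melanoma. The ranges overlapped, and the log2 fold change was 1.82 (SE 0.39, adjusted p = 1.45e-05). Kif1c was 14.7 to 77.1 CPM (median 51.7), with a log2 fold change of 1.70 (SE 0.33), and Kif1b 49.9 to 104 CPM (median 66.1), with one of 0.87 (SE 0.25). Every Kif1b value was above the highest of melanoma (42.7), and the lowest Kif1c value met the melanoma maximum of 14.7. Without Atf4D/D replicate 2, which gave 128 of the 316 cells, Kif13b (1.30, adjusted p = 0.0571) and Kif1b (0.62, adjusted p = 0.109) no longer passed and the count of called kinesins fell from 10 to 6.

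In TAM-like cells 7 kinesins were called lower (28.3% of 11465 genes were) and 3 higher (15.8% were). Kif21a was 0 to 17.2 CPM, with 5 UMIs in all, against 59.1 to 84.3 in melanoma, a log2 fold change of −3.57 (SE 0.46, adjusted p = 4.92e-14). Kif21b (−1.73, SE 0.44), Kif3a (−1.16, SE 0.27), Kif15 (−1.04, SE 0.42) and Kif5b (−0.65, SE 0.16) were also lower. The Kif15 call was lost with DESeq2 (adjusted p = 0.0969) and without any 1 of 5 of the 7 tumours (adjusted p = 0.056 to 0.102 with edgeR). Kif26a and Kif26b had 0 UMIs of 848197, which allows up to 3.54 CPM for each. The melanoma mean of Kif26a, 5.0 CPM, was above that limit, and that of Kif26b, 3.53, was not. The Kif26a call was lost with DESeq2 (adjusted p = 0.283) and without Atf4D/D replicate 2 (edgeR, adjusted p = 0.0750). The Kif26b call was lost in edgeR without the tumour block (adjusted p = 0.149), without the cell-cycle subcluster (0.0569) and in most fits that left out 1 tumour (up to 0.149). DESeq2 gave no adjusted p for Kif26b. Over all genes the median log2 fold change of TAM-like against melanoma was −0.42.

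Of the 205 mitotic kinesin UMIs in TAM-like cells, 158 came from 39 cells in a subcluster led by Cenpf, Spc25 and Nusap1, which is given with no test. There the 12 members together were 1051 CPM (interval 893 to 1228), and in the other 277 TAM-like cells 67.3 CPM (49.5 to 89.6). The 4 melanoma markers stood at 5.74% of the melanoma level in the subcluster and at 7.73% in the other cells. Without the subcluster the number of called kinesins rose from 10 to 18, since further mitotic members then fell below melanoma.

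The smaller classes are given as pooled counts with no test. Kif5b led in each of them, with 19 UMIs in T/NK-like cells (215 CPM, interval 130 to 336), 32 in endothelial-like (271 CPM, 185 to 382) and 6 in dendritic-like cells (136 CPM, 49.9 to 296). Kif21b came next in T/NK-like cells, with 8 UMIs (90.7 CPM, 39.2 to 179), and in dendritic-like cells, with 3 UMIs (68.1 CPM, 14.0 to 199), against 35.9 CPM in melanoma. The Kif21b interval in T/NK-like cells lay above this pooled melanoma level, but it held the median of G1-called melanoma cells. It leaves out the spread between tumours, and the gene was named for its UMI count, so this is no test. Kif2a followed in T/NK-like cells with 7 UMIs, and Kif1b and Kif1c followed in endothelial-like cells with 8 and 7. The mitotic members together were 215 CPM in T/NK-like (130 to 336), 159 in dendritic-like (63.8 to 327) and 279 in endothelial-like cells (192 to 392), and all 3 intervals held the 274 CPM of melanoma.

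**Figure D4:**
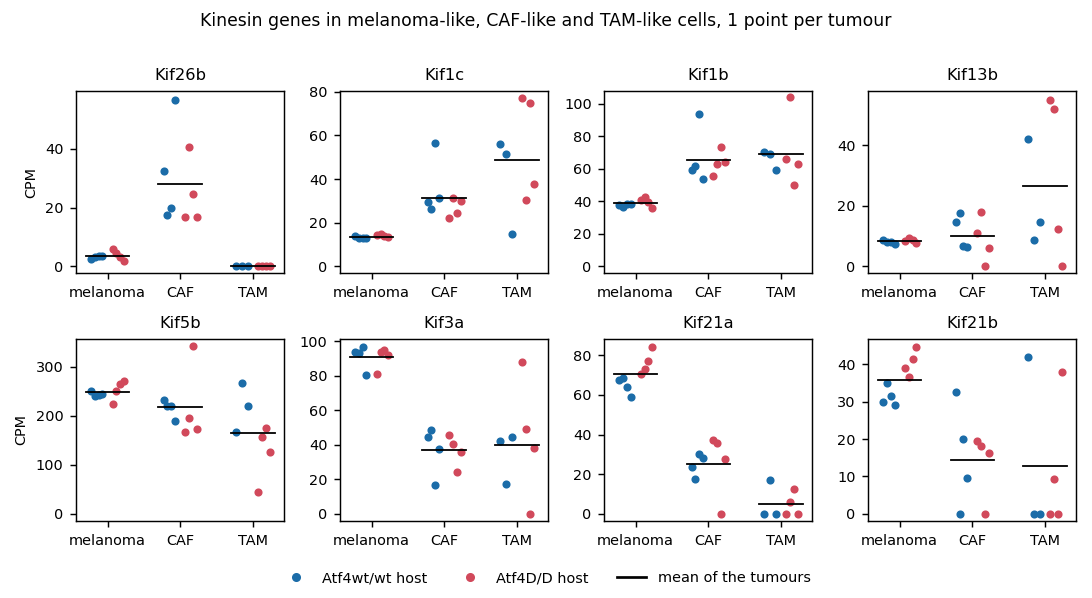
Levels of 8 kinesin genes in melanoma-like, CAF-like and TAM-like cells, in CPM, with 1 point per tumour coloured by host genotype and a line at the mean (8 tumours, 7 for TAM-like). Kif26b is 16.7 to 56.7 CPM in CAF-like cells and at most 5.83 in melanoma-like cells, and Kif21a is at most 17.2 in TAM-like cells.

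The study asked what host Atf4 does to the tumour, so kinesin levels in melanoma-like, CAF-like and TAM-like cells and the phase shares were also compared between Atf4D/D and Atf4wt/wt hosts. Atf4 itself was 278, 299, 323 and 290 CPM in CAF-like cells of the Atf4wt/wt tumours and 151, 104, 171 and 92.3 in those of the Atf4D/D tumours. The genotypes did not overlap, and the log2 fold change was −1.29 (SE 0.19, adjusted p = 0.0365). The direction held in all 14 alternatives (−2.11 to −1.12), while the call was lost with the replicate block, with host sex as a covariate and in 6 of the 8 fits that left out 1 tumour (all but those without Atf4D/D replicate 1 or 3), with adjusted p up to 0.382. In melanoma-like cells, which keep the gene, it was 359 ± 68.4 and 378 ± 63.8 CPM (SD, n = 4 each; log2 fold change 0.03, adjusted p = 0.960). The loxP sites flank exons 2 and 3, and whether the 3′ UMIs of Atf4 all fall between them is not given in the sources used here.

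No kinesin passed the test between host genotypes in melanoma-like cells (30 tested), in G1, S or G2M alone, in CAF-like cells (5 tested) or in TAM-like cells (1 tested), nor did any G2M to G1 difference depend on genotype. Few genes of any kind passed, with 0.0319% called in melanoma-like cells, 0.0428% in G1, 0.0366% in S, 0% in G2M, 0.043% in CAF-like and 0% in TAM-like cells. At an unadjusted p under 0.05 there were 3 kinesins in melanoma-like cells, 2 in G1, 4 in S, 7 in G2M, 0 in CAF-like cells and 1 in TAM-like cells, and 0 in the interaction of genotype with phase. The share of all genes at this level was 11.3% in melanoma-like cells, 10.8% in G1, 10.2% in S, 10.3% in G2M, 6.67% in CAF-like cells, 7.3% in TAM-like cells and 4.18% in the interaction. DESeq2 and every other alternative also called 0 kinesins in each of these comparisons.

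The nearest to a genotype difference was Kif21b, at 29.8, 35.0, 31.6 and 29.0 CPM in melanoma-like cells of Atf4wt/wt hosts and 38.9, 36.7, 41.3 and 44.6 in those of Atf4D/D hosts. All 4 Atf4D/D tumours stood above all 4 Atf4wt/wt tumours. How many of all genes separated the genotypes in this way was not counted, and 11.3% of them had an unadjusted p under 0.05 (edgeR) here. The log2 fold change was 0.32 (SE 0.08, adjusted p = 0.230). The difference was 0.41 in G1 (SE 0.13, adjusted p = 0.310), where the ranges overlapped, and 0.28 in G2M (SE 0.08, adjusted p = 0.262), where they did not. Its relative Kif21a was 67.6, 68.6, 63.8 and 59.1 CPM against 70.7, 73.0, 77.3 and 84.3. These did not overlap either, with a log2 fold change of 0.19 (SE 0.07, adjusted p = 0.375).

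Kif18a leaned the other way, at 13.4, 10.3, 10.7 and 9.90 CPM in Atf4wt/wt and 9.04, 9.04, 10.3 and 10.5 in Atf4D/D tumours (log2 fold change −0.23, SE 0.10, adjusted p = 0.435). The groups overlapped. Its difference was −0.75 in G1 (adjusted p = 0.376), on levels of 1.93 ± 0.667 and 1.18 ± 0.297 CPM, and −0.26 in G2M (adjusted p = 0.359). In S the members with the smallest p were Kif3c (log2 fold change 0.39, adjusted p = 0.406), Kif18b (0.36, adjusted p = 0.461) and Kif26a (−0.36, adjusted p = 0.486). For the dependence of the G2M to G1 difference on genotype they were Kif18a (0.52), Kif3c (−0.33) and Kif26a (−0.37), each with an adjusted p of 0.999.

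In CAF-like cells Kif20b was 20.7, 52.7, 33.3 and 44.1 CPM in Atf4wt/wt tumours and 16.7, 36.0, 0 and 21.0 in Atf4D/D tumours, with a log2 fold change of −0.67 (SE 0.37, adjusted p = 0.824). Kif2a (0.31) and Kif5b (−0.15) were further from the threshold. In TAM-like cells Kif5b was 168, 267 and 221 CPM in 3 Atf4wt/wt tumours and 44.0, 156, 175 and 126 in the Atf4D/D tumours (log2 fold change −0.77, SE 0.34, adjusted p = 0.663). The values overlapped, and Atf4wt/wt replicate 2 was left out for its 7 cells.

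The mitotic kinesins together were 275 ± 39.0 CPM in melanoma-like cells of Atf4wt/wt tumours and 262 ± 17.9 in those of Atf4D/D tumours (SD, n = 4 each), and 672 ± 46.2 and 642 ± 24.8 in G2M-called cells alone. In CAF-like cells they were 127, 220, 163 and 277 CPM against 122, 196, 24.5 and 149, which overlap. The share of melanoma-like cells called G2M, on which a whole-class level of these genes rests, was 25.4% ± 3.76 in Atf4wt/wt and 26.6% ± 2.50 in Atf4D/D tumours. They differed by 1.23 percentage points (exact two-sided permutation test over 70 assignments, p = 0.571, adjusted p = 0.857, smallest possible p = 0.0286). The S share was 24.2% ± 2.94 against 23.1% ± 2.53 (exact permutation p = 0.543) and the G1 share 50.4% ± 6.22 against 50.3% ± 4.88 (exact permutation p = 0.971).

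**Figure D5:**
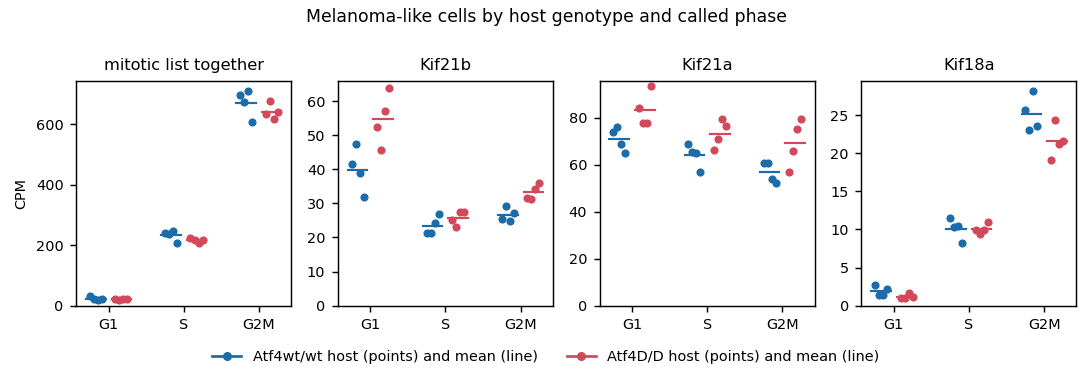
Levels of the mitotic kinesins together, of Kif21b, of Kif21a and of Kif18a in melanoma-like cells by called phase, in CPM, with 1 point per tumour (4 Atf4wt/wt and 4 Atf4D/D hosts) and a line at each group mean. The Kif21b points of the genotypes overlap in G1 and S and not in G2M, where the adjusted p was 0.262.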

How the data were processed

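Single cells of 8 B16F10 tumours, 4 per host genotype, were measured with a 10x 3′ kit (version V3 in the labels and V2 in the study's methods). For every tumour the authors deposited a matrix of UMI counts (whole numbers, genes by barcodes), made with Cell Ranger 3.1.0 on GRCm38, per the labels, which also name Seurat 3.2.1. No normalization had been applied to these counts, and 37283598 to 74942137 UMIs per library set their precision. The study's methods give another age than the 12 weeks of the labels.

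Cells of 200 to 5000 genes whose mitochondrial share was 7.5% or less were clustered with Seurat 5.3.0 (2000 variable genes less 14 kinesins, 20 components, resolution 0.6). The upper limit on genes was the only step against doublets, and no doublet caller was run. Clusters were named from marker lists, and 1 cluster rich in mitochondrial counts was left out. A tumour's class or phase was kept in a fit with at least 10 cells. UMIs were summed per tumour, filtered with filterByExpr, scaled by TMM and tested with edgeR 4.0.16 in R 4.3.3 by its quasi-likelihood test, with Benjamini-Hochberg adjustment over all genes tested and a threshold of 0.05. The tumour was a block in comparisons of phases or classes, and genotypes were compared without a block. SEs were derived from the log2 fold change and the F value of the test. Phase shares were compared by exact permutation. Intervals are exact Poisson (95%) and, like the floor of 3 counts for a gene at 0, cover counting error only. The steps were tested on simulated data. A true log2 change of 0.5 was called for 87% of changed genes in G2M against G1. Between genotypes it was called for 63% in melanoma-like, 7.53% in CAF-like and 14.9% in TAM-like cells. In TAM-like against melanoma it was called for 4.17%. There unchanged genes were shifted by a median of −0.16, and 7.21% of them had an unadjusted p under 0.05 (edgeR). Small changes in host cells could thus be missed.

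Named were all mitotic members, the 8 other members with the largest called change per comparison, the 3 with the most UMIs per host class, the 3 with the smallest p per genotype comparison, and 3 partner genes per direction. Members and lists were chosen with earlier results of these data known. Atf4 was named as a check of the labels, and the rarely detected members, Kif5c, the pooled fibroblast values and the cluster levels were added after their values were seen.

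Alternatives were DESeq2 1.42.0, its size factors in edgeR, no filter on low counts, a marker gate for melanoma cells, thinning to 5000 UMIs, cells near the boundary of the G1 call left out (phase shares only), no tumour block, a replicate block, host sex as a covariate, CAF-like cells with at most 2 melanoma marker UMIs, and each tumour left out. TAM-like cells without their cell-cycle subcluster were added after seeing the data. Promoters are from RefSeq, GRCm38.p6. The replicate numbers did not pair the tumours.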

Additional observations from a re-analysis of the deposited data

Results flagged for a closer look

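In melanoma-like cells 4 of 34 groups of 4 tumours held 1 tumour far from the other 3 (a gap to the nearest above Dixon's 95% limit, as a share of the group's range), and chance alone gives about 1 in 20. Among Atf4wt/wt tumours, Kif15 was 38.4 CPM in replicate 1, with the others at 28.5 to 29.8. Among Atf4D/D tumours, Kif4 was 30.9 CPM in replicate 1 (others 26.1 to 26.7), and Kif11 was 38.7 CPM in the same tumour (others 35.5 to 35.7). Kif22 was 18.7 CPM in Atf4D/D replicate 2, with the others at 26.5 to 27.8.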

How the results depend on the processing

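The rise of all 12 mitotic kinesins from G1 to S and to G2M, and of 11 from S to G2M, held with DESeq2, its size factors, every gene of at least 1 count, the marker gate, thinned cells, no tumour block, and without any 1 tumour. The count of kinesins that changed in late against early G2M was 12, and became 7 with DESeq2, 5 with thinned cells and 5 without the tumour block, and 9 to 11 with 1 tumour left out. In CAF-like cells against melanoma it was 13, and 22 with every gene of at least 1 count kept, and the cause was not tested. In TAM-like cells against melanoma it was 10, and 18 without the cell-cycle subcluster, and 6 to 9 with 1 tumour left out, lowest without Atf4D/D replicate 2. Between genotypes 0 kinesins were called in all alternatives, while the number of genes called among all genes ranged from 0 to 119 in melanoma-like cells (4 as reported), 0 to 72 in G1 (5), 0 to 177 in S (4), 0 to 141 in G2M (0), 0 to 17 in the interaction (0), 0 to 103 in CAF-like (2) and 0 to 12 in TAM-like cells (0). Over all genes the calls ranged from 2886 to 5294 in G2M against S (5220) and from 643 to 2417 in late against early G2M (2399). With host sex as a covariate 0 genes were called in melanoma-like cells, G1, S, CAF-like and TAM-like cells and 1 in G2M.

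The difference in the G1 share was −0.0973 percentage points and turned to 0.559 with thinned cells, 0.203 with the marker gate and 0.186 without cells near the boundary of the G1 call, and was −2.74 to 2.25 with 1 tumour left out. Some log2 fold changes that had not passed the test turned sign. With 1 tumour left out they were Kif24 in G2M against S (−0.062 to 0.132, lowest without Atf4D/D replicate 3), Kif20a in CAF-like cells (−0.316 to 0.083, highest without Atf4D/D replicate 1), and in TAM-like cells Kif18a (−0.12 to 0.298, lowest without Atf4wt/wt replicate 4) and Kif14 (−0.97 to 0.23, highest without Atf4D/D replicate 2). Kif24 in TAM-like cells became 0.28 with DESeq2. Without the TAM-like subcluster, which removes the cycling cells, Kif18a (−2.80), Kif4 (−1.46), Kif22 (−1.44), Kif18b (−9.97, a fitted value that depends on the prior count and is no bound) and Kif20b (−1.71) turned sign. For the other reversals the cause was not tested.

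Tumours with the same replicate number did not deviate together (correlations −0.36 to −0.06, 0 of 4 pairs over 0.1), so the numbers are names only, and a replicate block called 0 kinesins between genotypes. The 7 to 128 TAM-like and 10 to 242 CAF-like cells per tumour left 1 and 5 kinesins to test there between genotypes.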

Other observations

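A pair of clusters kept without a name also held kinesin RNA. In 1982 cells led by Malat1, with a median of 1434 UMIs, Kif5b was 263 CPM (interval 245 to 281), Kif21a 112 (101 to 124) and the mitotic members together 184 (169 to 199). In 798 cells led by AY036118 and Gm42418, with a median of 1047 UMIs and almost no mitochondrial counts, Kif5b was 188 CPM (165 to 213), Kif3a 104 (87.8 to 123) and the mitotic members together 258 (231 to 286).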
